A study of Mus musculus with 74 samples.

Results

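The mRNA levels of 5 genes of transcription factors and chromatin proteins were followed across 35 RNA-seq libraries of mouse embryonic stem (ES) cells. They were Pou5f1 (which encodes Oct4), Sox2, Sall4, Utf1 and Zscan10. They were taken by name, out of the 37620 genes listed, as genes of the pluripotency network that naive and primed cells share, and all 5 were measured in every library and passed the filter on low counts in every comparison. Oct4, a POU-domain factor, and Sox2, an HMG-box factor, bind side by side at many regulatory elements of ES cells and control each other and much of the network. Sall4 is a zinc finger protein found in complexes with Oct4 and Nanog, Utf1 is a chromatin-associated protein of undifferentiated cells, and Zscan10 (also known as Zfp206) is a SCAN-domain zinc finger factor. Genes of naive pluripotency, such as Esrrb and Klf4, are shut down when ES cells leave the naive state, whereas Oct4, Sox2 and their shared partners remain in use in the primed epiblast.

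The libraries came from E14Tg2a ES cells and their derivatives in medium with serum. SunTag is a CRISPR activator in which an inactive Cas9 carries epitopes that recruit VP64, and here a Tetracycline Responsive Element and rtTA put it under the control of doxycycline (Dox). It was carried by a pair of clonal lines, C1 and C2. Nanog SunTag cells bore a guide RNA against the Nanog promoter and Nanog/Otx2 SunTag cells (labelled C1ON3 and C2ON3) bore guides against Nanog and Otx2. The Nanog/Otx2 cells were made from the Nanog cells of each clone by adding the Otx2 guide and picking clones again. Both were kept for 72 h with or without LIF (10 ng/ml), the cytokine that sustains ES cell self-renewal, and with or without Dox (1 µg/ml). Nanog cells gave 3 libraries with LIF and no Dox, 2 with LIF and Dox, 3 without both and 3 with Dox alone, and Nanog/Otx2 cells gave 3, 4, 4 and 4. The names C1-1 to C2-2 give the clone and the replicate number of the sample titles, and C1-1b is a second library titled C1 replicate 1. For 4 libraries the number in the column of the deposited tables differs from that of the title (C1-1b and C2-2 of Nanog cells with Dox alone, C1-1 of Nanog cells with LIF and Dox, and C2-1 of Nanog/Otx2 cells with LIF alone), so the clone is the firmer part of these names. 44iN cells lack endogenous Nanog and carry a Dox-inducible Nanog transgene, and they were grown in LIF with Dox (2 libraries), 24 h after its removal (2) or in long-term (LT) culture without it (2). The wild-type line Tg2a, in the same serum with LIF, gave 3 libraries. No label says that libraries of a group came from separate cultures, so the p-values measure only the spread between these libraries.

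The guide sites are shown because they set which promoters Dox activates, with the NGG motif next to the site in capitals. Each has a single exact match in mm9. The Nanog site, chr6:122657269-122657288 on the + strand, lies 238 bases upstream of the annotated start of Nanog. The Otx2 site, chr14:49282649-49282668 on the - strand, lies in an intron of the longest gene model and 121 bases upstream of the nearest annotated transcript start of Otx2. None of the 5 genes was itself a target.
Nanog guide site: cttcccactagagatcgccaGGG
Otx2 guide site: aatgtagagcgtgcatttggAGG

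In mm9 with the GENCODE vM1 annotation, Pou5f1 (ENSMUSG00000024406) is at chr17:35642982-35647721 on the + strand, Sox2 (ENSMUSG00000074637) at chr3:34548927-34551383 on the + strand, Sall4 (ENSMUSG00000027547) at chr2:168573832-168593443 on the - strand, Utf1 (ENSMUSG00000047751) at chr7:147129688-147131011 on the + strand and Zscan10 (ENSMUSG00000023902) at chr17:23737823-23747986 on the + strand. Their exons hold 54.7%, 52.1%, 53.8%, 63.5% and 56.6% G and C, and Utf1 stands at the 98.8th percentile of protein-coding genes. Sox2 lies inside the gene of a long non-coding RNA, Sox2ot, which is read from the same strand (chr3:34003360-34581541 on the + strand), so reads in stretches shared by both could be split between them. The 250 bases before the annotated start are shown for Sox2, Utf1 and Zscan10, which moved in different directions upon LIF withdrawal (below).
Sox2, chr3:34548677-34548926 (+ strand): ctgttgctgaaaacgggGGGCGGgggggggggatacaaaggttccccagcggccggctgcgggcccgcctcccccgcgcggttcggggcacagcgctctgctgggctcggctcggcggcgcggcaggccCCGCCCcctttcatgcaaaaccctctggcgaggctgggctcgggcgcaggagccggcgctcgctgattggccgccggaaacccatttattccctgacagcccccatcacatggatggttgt
Utf1, chr7:147129438-147129687 (+ strand): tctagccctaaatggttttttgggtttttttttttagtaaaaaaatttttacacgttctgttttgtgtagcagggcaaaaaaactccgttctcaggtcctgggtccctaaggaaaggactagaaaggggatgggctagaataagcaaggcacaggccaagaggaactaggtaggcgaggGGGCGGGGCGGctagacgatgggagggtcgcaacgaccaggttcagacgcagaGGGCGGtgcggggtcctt
Zscan10, chr17:23737573-23737822 (+ strand): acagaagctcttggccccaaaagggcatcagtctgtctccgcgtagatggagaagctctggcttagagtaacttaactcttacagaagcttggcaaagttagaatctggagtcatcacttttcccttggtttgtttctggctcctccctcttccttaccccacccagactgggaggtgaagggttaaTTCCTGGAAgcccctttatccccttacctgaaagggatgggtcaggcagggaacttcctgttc
Capitals mark a GC box (GGGCGG) in Sox2 and Utf1 and a STAT motif (TTCNNNGAA) in Zscan10, searched on both strands, and the leading pair of GC boxes of Utf1 overlaps. GC boxes number 2 in the Sox2 window and 3 in that of Utf1. A GC box stands in 39.6% and a STAT motif in 6.83% of the 22380 windows of the same length before protein-coding genes. The octamer ATGCAAAT (1.62% of windows), a Sox motif ACAATG (9.09%) and the Esrrb motif TCAAGGTCA (0.331%) were found in none of these 3 windows. The matches describe the letters of these windows and carry no measurement of binding.

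Between 6107512 and 92244655 estimated counts were assigned to genes per library, and the lowest estimated count of any of the 5 genes in a library was 114 (Utf1). The libraries differed in how GC-rich genes compared with GC-poor genes. This is given as a GC measure, the median log2 deviation from the gene's mean for the 20% of genes richest in GC minus that for the poorest 20%. It ranged from -2.88 to -0.52 in 44iN and Tg2a libraries, from -0.75 to 0.76 in Nanog and from 0.66 to 1.21 in Nanog/Otx2 libraries. Library C1-1 of Nanog cells with LIF and no Dox stood apart from its group (-0.75, against 0.76 and 0.61). As a check of the labels, Nanog rose with Dox in the absence of LIF in both kinds of SunTag cells (log2 fold change 3.16, SE 0.39, adjusted p = 0.000899, and 3.19, SE 0.33, adjusted p = 1.7e-05), and Otx2 rose with Dox in Nanog/Otx2 cells (0.85, SE 0.13, adjusted p = 0.000566). The normalised counts of Nanog in 44iN cells were 13366 in replicate 1 and 18394 in replicate 2 with Dox and 706 in replicate 1 and 739 in replicate 2 after 24 h without it. All adjusted p-values, unless another tool is named, come from edgeR's quasi-likelihood test and were adjusted by Benjamini-Hochberg over all genes tested, and a gene was called at an adjusted p under 0.05.

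The 5 genes differed in how widely they varied. Normalised counts are the deposited counts divided by a size factor per library. Sall4 varied least, from 3799.9 to 9196 normalised counts over the 35 libraries (2.42-fold), and Utf1 most, from 274 to 10367 (37.9-fold). Pou5f1 ranged from 6786 to 47215, Sox2 from 3953 to 23712 and Zscan10 from 836 to 4659. Per kilobase of exon, the median level was 16111 for Pou5f1, 4063 for Sox2, 3393 for Utf1, 984 for Zscan10 and 949.9 for Sall4. Pou5f1 was above Sall4, Utf1 and Zscan10 per kilobase in 35 of 35 libraries and above Sox2 in 30.

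Along the 12 conditions ordered by mean, Pou5f1 was highest in Nanog/Otx2 cells with LIF and no Dox, at 44319 ± 2762 (SD, n = 3) normalised counts, and lowest in 44iN cells 24 h after Dox removal, at 8046 ± 1781 (SD, n = 2). Utf1 ran from 9107 ± 847 (SD, n = 4) in Nanog/Otx2 cells with Dox alone down to 329 ± 78.4 (SD, n = 2) in 44iN cells after 24 h. Sox2 was highest where Pou5f1 and Utf1 were lowest, in 44iN cells after 24 h at 21368 ± 3314 (SD, n = 2), and lowest in Nanog cells without LIF and Dox at 5639 ± 1541 (SD, n = 3). Zscan10 was highest in Nanog cells without LIF and Dox at 4333 ± 413 (SD, n = 3) and lowest in Tg2a cells at 1088 ± 429.9 (SD, n = 3). Sall4 ran from 8098 ± 1552 (SD, n = 2) in 44iN cells after 24 h to 4346 ± 497 (SD, n = 3) in Nanog cells with Dox alone. Neighbours in these orders mostly did not differ beyond their spread, taken as the larger SD of the pair. Of 11 neighbouring pairs, 3 did for Pou5f1, 3 for Utf1, 2 for Zscan10, 1 for Sox2 (Nanog cells with Dox alone over Nanog/Otx2 cells without LIF and Dox) and 0 for Sall4. The position of 44iN and Tg2a libraries in these orders goes with their GC measure, and its part in them was not tested.

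**Figure D1:**
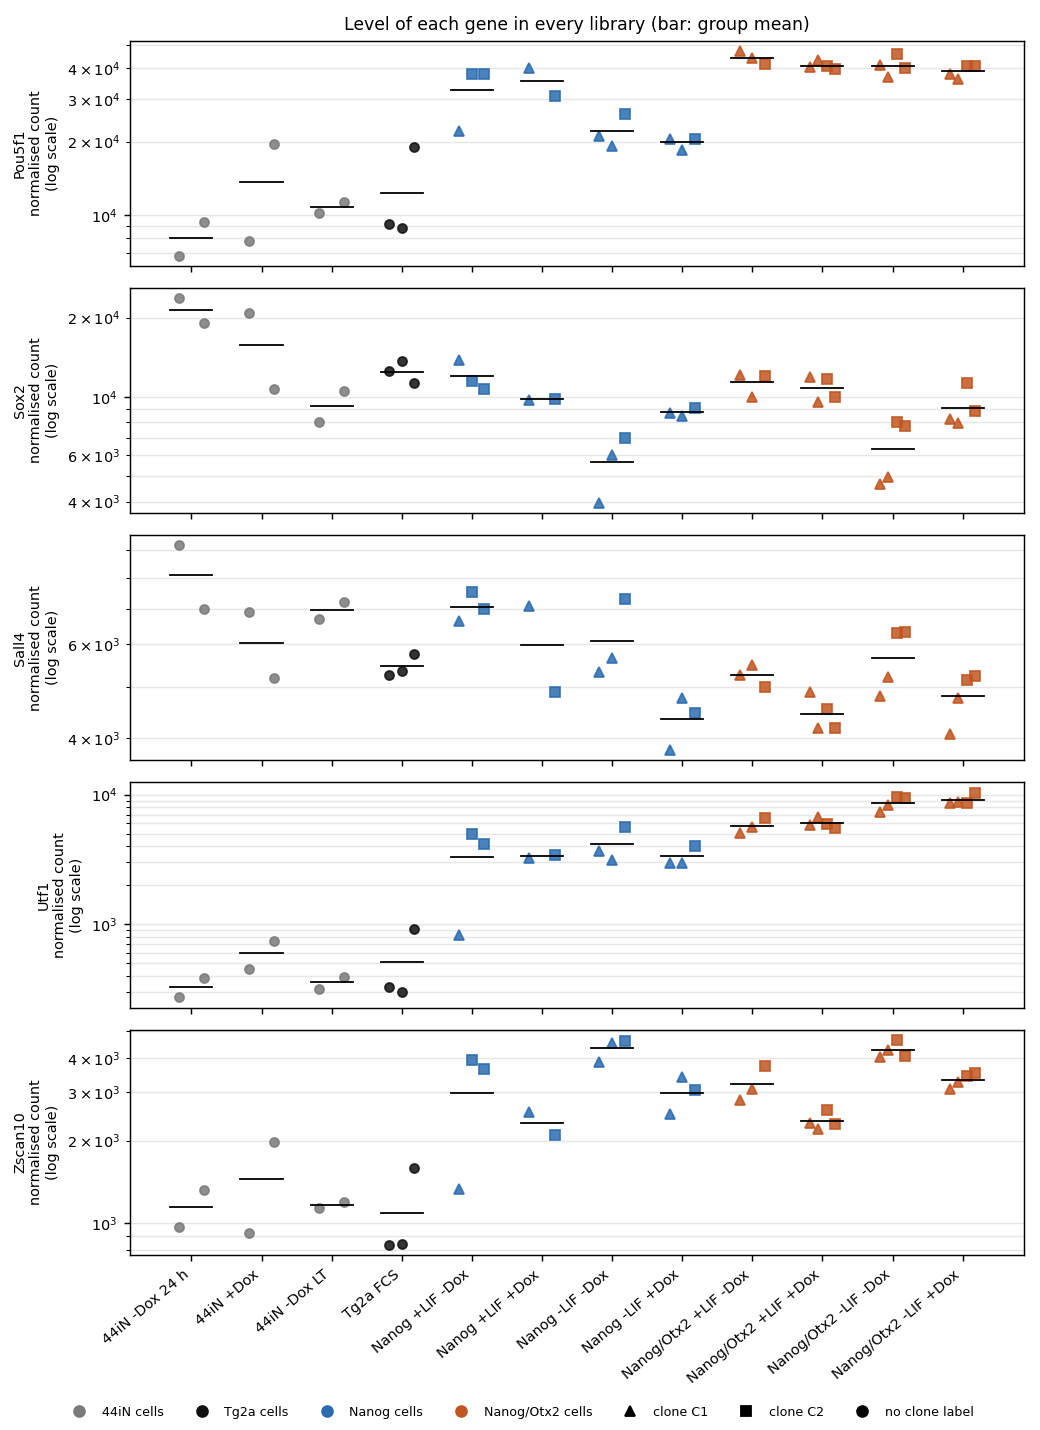
Normalised count (log scale) of each gene in every library of the 12 conditions; points are libraries, coloured by cell line and shaped by clone, and bars are condition means. Sox2 fell upon LIF withdrawal in Nanog and Nanog/Otx2 cells, and Pou5f1, Utf1 and Zscan10 sit lower in 44iN and Tg2a cells than in most SunTag libraries.

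The question of LIF withdrawal without Dox was how the shared core fares when ES cells lose the signal for self-renewal. Sox2 fell to 0.462 of its level in Nanog cells and to 0.548 in Nanog/Otx2 cells, Pou5f1 fell in Nanog cells, and Utf1 and Zscan10 rose in Nanog/Otx2 cells. Sall4 passed the test in neither. In Nanog cells 2 of the 5 genes were called, where 41.5% of all genes tested were, and in Nanog/Otx2 cells 3, where 49.8% were, so the share of members called stood close to that of all genes.

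In Nanog cells, Sox2 stood with LIF at 13782 in C1-1, 11531 in C2-1 and 10742 in C2-2, and without it at 3953 in C1-1, 5991 in C1-2 and 6974 in C2-1 normalised counts. Every library without LIF was below every library with it (log2 fold change -1.11, SE 0.19, adjusted p = 0.000936), and without C1-1 with LIF, the library apart in GC measure, the difference was -0.97 (adjusted p = 0.00139). In Nanog/Otx2 cells it stood at 12106 in C1-1, 9991 in C1-2 and 11957 in C2-1 with LIF and at 4683 in C1-1, 4944 in C1-2, 8039.9 in C2-1 and 7772 in C2-2 without. The groups did not overlap there either, and within the cells without LIF both C1 libraries were below both C2 libraries (log2 fold change -0.87, SE 0.18, adjusted p = 0.00114).

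Pou5f1 in Nanog cells read 22107 in C1-1, 38045 in C2-1 and 37806 in C2-2 with LIF and 21176 in C1-1, 19118 in C1-2 and 25894 in C2-1 without. The groups overlapped, since C1-1 with LIF was as low as the libraries without LIF (log2 fold change -0.58, SE 0.20, adjusted p = 0.0395). Without that library the difference was -0.77 (adjusted p = 0.00151). The call was not made with the replicate block, a term for the clone (-0.49, adjusted p = 0.0549, where 46.3% of genes were called), without the filter on low counts (-0.53, adjusted p = 0.0512), or when any 1 of 7 of the 11 libraries was left out, C2-1 or C2-2 with LIF, C1-1 or C1-2 without LIF and Dox, or any of the 3 with Dox alone (adjusted p = 0.0587 to 0.146). In Nanog/Otx2 cells Pou5f1 read 47215 in C1-1, 44028 in C1-2 and 41714 in C2-1 with LIF and 41227 in C1-1, 36862 in C1-2, 45805 in C2-1 and 40336 in C2-2 without. These groups overlapped and the difference did not pass the test (log2 fold change -0.14, 95% interval -0.31 to 0.027, adjusted p = 0.152).

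Utf1 in Nanog/Otx2 cells was at 5083 in C1-1, 5681 in C1-2 and 6550.3 in C2-1 with LIF and at 7389 in C1-1, 8255 in C1-2, 9542 in C2-1 and 9471 in C2-2 without. All 4 libraries without LIF were above all 3 with it (log2 fold change 0.56, SE 0.11, adjusted p = 0.000753). The median GC measure was higher by 0.15 without LIF, and with a correction for GC content the difference was 0.33 (adjusted p = 0.0572), or 0.26 with the replicate block as well (adjusted p = 0.0125). In Nanog cells Utf1 read 825 in C1-1, 4973 in C2-1 and 4164 in C2-2 with LIF and 3646 in C1-1, 3110.1 in C1-2 and 5649 in C2-1 without, and no call was made (log2 fold change 0.31, 95% interval -0.71 to 1.32, adjusted p = 0.620). The low value of C1-1 with LIF sets the sign there, as the difference was -0.13 without that library.

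Zscan10 in Nanog/Otx2 cells was at 2809 in C1-1, 3076 in C1-2 and 3726 in C2-1 with LIF and at 4038 in C1-1, 4289 in C1-2, 4659 in C2-1 and 4084 in C2-2 without. The groups did not overlap (log2 fold change 0.39, SE 0.095, adjusted p = 0.00334). In Nanog cells it was at 1336 in C1-1, 3948 in C2-1 and 3636 in C2-2 with LIF and at 3860.3 in C1-1, 4520.4 in C1-2 and 4619.6 in C2-1 without. Here the groups overlapped by a single pair of libraries and the difference did not pass the test (0.53, 95% interval -0.13 to 1.19, adjusted p = 0.180). It was 0.21 without C1-1 with LIF, and it passed with the GC correction (0.56, adjusted p = 0.0421).

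Sall4 was at 6625 in C1-1, 7531 in C2-1 and 6980.2 in C2-2 with LIF and at 5324 in C1-1, 5646 in C1-2 and 7296 in C2-1 without in Nanog cells. In Nanog/Otx2 cells it was at 5259 in C1-1, 5497 in C1-2 and 4990.3 in C2-1 with LIF and at 4804 in C1-1, 5204 in C1-2, 6307 in C2-1 and 6328 in C2-2 without. Its groups overlapped in both lines and neither difference passed (-0.23, 95% interval -0.61 to 0.15, adjusted p = 0.313, and 0.074, -0.16 to 0.31, adjusted p = 0.612).

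Markers of cell state had larger fold changes in the same libraries. Of 12 naive ES cell markers, 11 fell in Nanog and 12 in Nanog/Otx2 cells upon LIF withdrawal (median log2 fold change -4.53 and -4.32, against -0.049 and -0.012 over all genes), and all 9 formative or primed markers tested rose in both (3.75 and 3.03). Summed neural markers, a lineage in which Sox2 is also expressed, stood at 167 to 351 normalised counts with LIF and at 1183 to 3684 without in Nanog cells. They stood in Nanog/Otx2 cells at 264 to 675 with and at 871 to 3454 without. 4 of 5 neural markers are listed, and 1 of them was at 0 in every library with LIF and no Dox in both lines. Summed trophoblast markers stood at 233 to 448 with LIF and at 1501 to 1847 without in Nanog cells, and at 387 to 494 with and 2063 to 3343 without in Nanog/Otx2 cells. Mesendoderm markers stood at 88.6 to 193 with and 435 to 639.9 without in Nanog cells, and at 101 to 124 with and 208 to 311 without in Nanog/Otx2 cells. The groups overlapped for none of these sums, and all were higher without LIF. Primitive endoderm markers stood at 683 to 1564 with and 1541 to 1812 without in Nanog cells, overlapping, and at 317 to 972 with and 1002 to 1963 without in Nanog/Otx2 cells, not overlapping. In the order of Nanog and Nanog/Otx2 cells, 1 of 3 and 2 of 3 neural markers tested rose. Of trophoblast markers 2 of 3 and 2 of 2 rose, as did 2 of 3 and 2 of 2 of mesendoderm. By contrast, 4 of 5 primitive endoderm markers fell in Nanog cells and 1 of 5 rose in Nanog/Otx2 cells. Of the mesendoderm markers, 1 was at 0 in every Nanog library with LIF alone. The part of these cells in the levels was not tested, and in bulk RNA fewer cells that express a gene and less of its RNA per cell cannot be told apart.

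**Figure D2:**
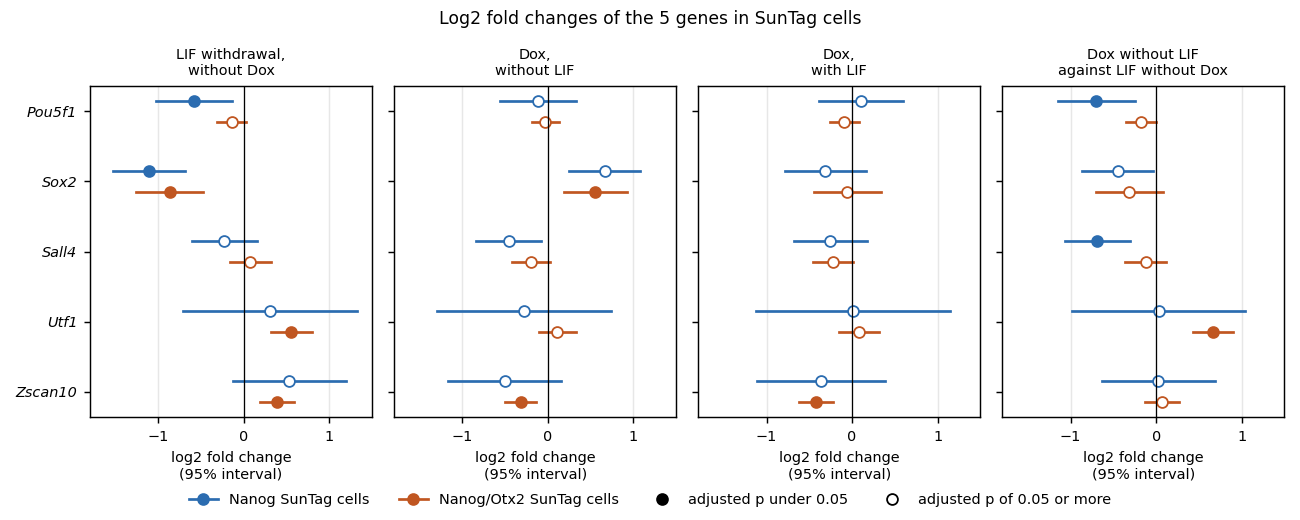
Log2 fold change of each gene (x axis, with its 95% interval) in 4 comparisons of Nanog and Nanog/Otx2 SunTag cells; filled points passed an adjusted p of 0.05. Upon LIF withdrawal the points of Sox2 lie at -1.11 and -0.87, and with Dox without LIF at 0.66 (not called) and 0.55.

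With Dox in the absence of LIF, the question was what activation of the endogenous Nanog promoter does for the shared core. Sox2 rose in Nanog/Otx2 cells and Zscan10 fell there, whereas in Nanog cells none of the 5 genes was called. The share of all genes called was 17.3% in Nanog/Otx2 cells, against 2 of 5 members, and 5.14% in Nanog cells, where edgeR called 803 genes, 2896 were at an unadjusted p under 0.05 and DESeq2 called Sox2 alone among the members. With the replicate block the genes called went to 1375 in Nanog and from 2702 to 5215 in Nanog/Otx2 cells. Markers of cell state moved in the same libraries. Of 12 naive ES cell markers 11 rose in Nanog and 10 in Nanog/Otx2 cells (median log2 fold change 2.56 and 2.19), and of 9 formative or primed markers 4 and 3 fell, with 1 that rose in Nanog/Otx2 cells. The marker that rose was Otx2, itself a target of the guides in those cells. In Nanog cells the summed primitive endoderm markers stood at 1541 to 1812 without Dox and at 674 to 946 with it, and the trophoblast markers at 1501 to 1847 without and 936 to 1106 with it, neither overlapping, while the neural and mesendoderm sums overlapped. The sums of all 4 overlapped in Nanog/Otx2 cells. Tested singly in Nanog cells, 0 of 5 primitive endoderm (median log2 fold change 0.044) and 0 of 3 trophoblast markers were called. There 1 of 3 neural and 1 of 3 mesendoderm markers fell. In Nanog/Otx2 cells 0 of 5 primitive endoderm and 0 of 2 trophoblast markers were called, 1 of 3 neural markers fell and 1 of 2 of mesendoderm rose. The part of such cells in the levels was not tested.

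Sox2 in Nanog/Otx2 cells went from 4683 in C1-1, 4944 in C1-2, 8039.9 in C2-1 and 7772 in C2-2 without Dox to 8272 in C1-1, 7963 in C1-2, 11304 in C2-1 and 8852 in C2-2 with it. The groups overlapped, as C1-2 with Dox was below C2-1 without it (log2 fold change 0.55, SE 0.17, adjusted p = 0.0375). The call was lost without any 1 of 4 libraries, C1-1 or C1-2 without Dox and C2-1 or C2-2 with Dox (0.43 to 0.56, adjusted p = 0.0613 to 0.115). In Nanog cells Sox2 was at 3953 in C1-1, 5991 in C1-2 and 6974 in C2-1 without Dox and at 8712 in C1-1, 8433 in C1-1b and 9074 in C2-2 with it. All 3 libraries with Dox were above all 3 without, yet the adjusted p did not pass (0.66, SE 0.19, 95% interval 0.24 to 1.08, adjusted p = 0.0732). DESeq2 gave 0.64 with an adjusted p of 0.0266.

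Sox2 and Nanog differed between the clones in the cells without LIF and Dox. Sox2 was at 3953 and 5991 in C1 and at 6974 in C2 in Nanog cells, and in Nanog/Otx2 cells at 4683 and 4944 in C1 and at 8039.9 and 7772 in C2. Nanog was at 7032 and 8484 in C1 and at 2234 in C2, and at 6867, 6327, 1974 and 2533 in the same order. C1 thus had less Sox2 and more Nanog than C2 in both lines. The Nanog/Otx2 cells derive from the Nanog cells of these clones, so the lines are not independent repeats, and C2 of Nanog cells is a single library here. On the scale of clone means, Sox2 with Dox was higher by a log2 difference of 0.79 and 0.75 in C1 and of 0.38 and 0.35 in C2 (Nanog and Nanog/Otx2 cells). The clones were compared after their values were seen and the difference between them was not tested.

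**Figure D3:**
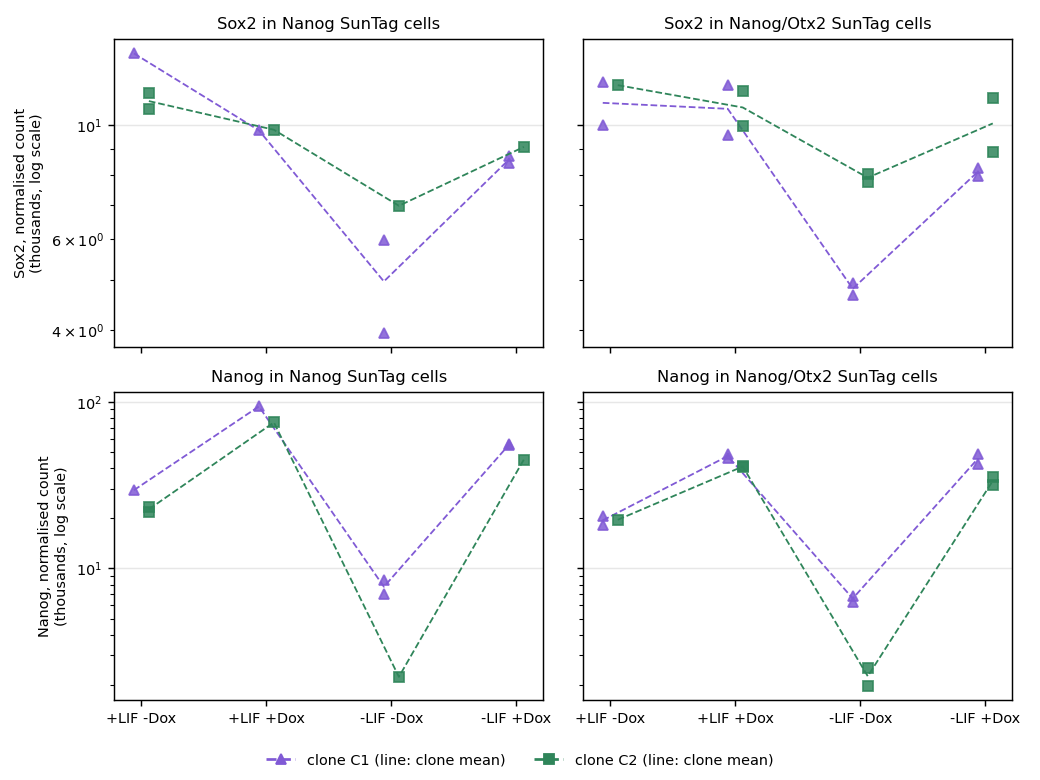
Levels of Sox2 and Nanog (normalised counts, log scale) in the 4 LIF and Dox conditions; points are libraries of clone C1 (triangles) or C2 (squares) and dashed lines join clone means. In cells without LIF and Dox, the C1 points of Sox2 lie below the C2 points and those of Nanog above them, in both lines.

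Zscan10 in Nanog/Otx2 cells was at 3089 in C1-1, 3261 in C1-2, 3447 in C2-1 and 3519 in C2-2 with Dox, below the 4038 in C1-1, 4289 in C1-2, 4659 in C2-1 and 4084 in C2-2 without it. The groups did not overlap (log2 fold change -0.32, SE 0.087, adjusted p = 0.0197). The call was lost without C2-1 of the cells without Dox or without C1-1 or C1-2 of those with Dox (adjusted p = 0.0531 to 0.0666). In Nanog cells, Zscan10 with Dox was at 2491 in C1-1, 3412 in C1-1b and 3065 in C2-2, again below every library without Dox, with a difference that did not pass (-0.51, 95% interval -1.17 to 0.15, adjusted p = 0.426).

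Sall4 with Dox stood at 3799.9 in C1-1, 4769.9 in C1-1b and 4469 in C2-2 in Nanog cells, below all 3 libraries without it, and at 4077 in C1-1, 4769 in C1-2, 5148 in C2-1 and 5241 in C2-2 in Nanog/Otx2 cells, where the groups overlapped. Neither passed (-0.46, adjusted p = 0.173, and -0.20, adjusted p = 0.209). Pou5f1 stood at 20598 in C1-1, 18531 in C1-1b and 20578 in C2-2 in Nanog and at 37935 in C1-1, 36346 in C1-2, 41073 in C2-1 and 41009 in C2-2 in Nanog/Otx2 cells, and its differences were -0.12 (95% interval -0.56 to 0.32) and -0.033 (-0.19 to 0.13). Utf1 stood at 2985 in C1-1, 2995 in C1-1b and 4046 in C2-2 and at 8648 in C1-1, 8833 in C1-2, 8579 in C2-1 and 10367 in C2-2, with differences of -0.28 (-1.29 to 0.74) and 0.11 (-0.11 to 0.33). The groups of both genes overlapped in both lines and none of the 4 differences passed the test.

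With LIF present, Zscan10 fell with Dox in Nanog/Otx2 cells and was the single member called there, where 22.9% of all genes were. In Nanog cells 0 members were called by edgeR and 0 by DESeq2, where 0.563% of genes were, and 0 of the 5 were at an unadjusted p under 0.05. Nanog, the target of the guide, was not called by edgeR there either. Its mean was 84519 normalised counts with Dox and 24924 without, with no overlap, so a missing call in this comparison does not show a lack of change. With the replicate block the genes called went from 88 to 293 in Nanog and from 3577 to 6401 in Nanog/Otx2 cells. Summed mesendoderm markers stood at 88.6 to 193 without Dox and at 483 to 688 with it in Nanog cells, and at 101 to 124 and 184 to 327 in Nanog/Otx2 cells. Trophoblast markers stood at 233 to 448 and 778 to 899 in Nanog cells, and at 387 to 494 and 727 to 894 in Nanog/Otx2 cells. All of these sums were higher with Dox without overlap. Tested singly, 1 of 3 mesendoderm and 1 of 3 trophoblast markers rose in Nanog cells, and 1 of 2 and 2 of 2 in Nanog/Otx2 cells. The part of such cells in the levels was not tested. Zscan10 in Nanog/Otx2 cells stood at 2315 in C1-1, 2212 in C1-2, 2578 in C2-1 and 2293 in C2-2 with Dox, under all 3 libraries without it (log2 fold change -0.42, SE 0.094, adjusted p = 0.00526). In Nanog cells it stood at 2551 in C1-1 and 2102 in C2-1, between C1-1 and the C2 libraries without Dox (-0.36, 95% interval -1.11 to 0.38, adjusted p = 0.660).

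Sox2 with LIF and Dox was at 9771 in C1-1 and 9796 in C2-1 in Nanog cells, below all 3 libraries without Dox, and at 11943 in C1-1, 9571 in C1-2, 11664 in C2-1 and 9982 in C2-2 in Nanog/Otx2 cells, overlapping those without. Its differences did not pass (-0.31, adjusted p = 0.536, and -0.055, adjusted p = 0.865). Pou5f1 was at 40077 in C1-1 and 30743 in C2-1 and at 40524 in C1-1, 43522 in C1-2, 40810.1 in C2-1 and 39698 in C2-2, Sall4 at 7082 in C1-1 and 4875 in C2-1 and at 4881 in C1-1, 4188 in C1-2, 4540.4 in C2-1 and 4180.2 in C2-2, and Utf1 at 3247 in C1-1 and 3455 in C2-1 and at 5788 in C1-1, 6773 in C1-2, 5984 in C2-1 and 5517 in C2-2, in Nanog and Nanog/Otx2 cells. Among these, the groups with and without Dox did not overlap for Sall4 in Nanog/Otx2 cells alone (-0.22, 95% interval -0.46 to 0.014, adjusted p = 0.161).

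Whether Dox acted differently on a gene with and without LIF was tested as an interaction. Neither line gave a call among the 5 genes, where 1.93% of all genes were called in Nanog and 9.70% in Nanog/Otx2 cells. Sox2 had the largest interaction of the 5 in both lines, 0.98 (95% interval 0.34 to 1.61, adjusted p = 0.123, unadjusted p = 0.00572) in Nanog and 0.61 (0.074 to 1.15, adjusted p = 0.157, unadjusted p = 0.0284) in Nanog/Otx2 cells. With the replicate block it was called in Nanog/Otx2 cells (0.65, adjusted p = 0.0267, where 21.8% of genes, 3407 in place of 1514, were called). That block rests on the replicate numbers of the titles, and with those of the table columns Sox2 was called as well (0.71, adjusted p = 0.0125, where 21.3% were). In Nanog cells the block took the genes called from 302 to 709, none of them a member, and DESeq2 called Sox2 (0.95, adjusted p = 0.0468).

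Cells with Dox alone were also set against cells with LIF alone, to see how far Nanog activation stood in for LIF. Sox2, which passed upon LIF withdrawal, did not pass here in either line, while Pou5f1 and Sall4 were lower in Nanog cells and Utf1 was higher in Nanog/Otx2 cells. 2 of 5 members were called in Nanog cells, where 28.1% of all genes were, and 1 in Nanog/Otx2 cells, where 45.3% were. These comparisons share their libraries with those above. Sox2 stood at -0.45 (95% interval -0.87 to -0.033, adjusted p = 0.0979) in Nanog cells, with all 3 libraries below those with LIF, and at -0.31 (-0.71 to 0.079, adjusted p = 0.180) in Nanog/Otx2 cells, where the groups overlapped. With the replicate block Sox2 was called lower in Nanog/Otx2 cells (-0.35, adjusted p = 0.0432, where 59.6% of genes were called). With the numbers of the table columns in the block, Sox2 was at -0.42 (adjusted p = 0.0155) and Pou5f1 was called too (-0.20, adjusted p = 0.0277), where 59.8% were. Of 12 naive ES cell markers 10 were lower in Nanog and 12 in Nanog/Otx2 cells than with LIF alone, and all 9 formative or primed markers were higher in both. Otx2, which Dox activates by a guide in Nanog/Otx2 cells, is among the 9.

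The libraries of Nanog cells with Dox alone were below all libraries with LIF alone for Pou5f1 (log2 fold change -0.70, SE 0.20, adjusted p = 0.0256) and for Sall4 (log2 fold change -0.69, SE 0.17, adjusted p = 0.0140). Without C1-1 with LIF these were -0.87 (adjusted p = 0.000991) and -0.69 (adjusted p = 0.00980). For Pou5f1 the call was lost without C2-1 or C2-2 with LIF or without any 1 of the 3 libraries with Dox (adjusted p = 0.0678 to 0.104), and for Sall4 without C1-1 with Dox (-0.57, adjusted p = 0.0698). In Nanog/Otx2 cells Pou5f1 was at -0.18 (adjusted p = 0.0844), again with no overlap, and with the GC correction it was called (-0.25, adjusted p = 0.0436). Utf1 was above all libraries with LIF alone in Nanog/Otx2 cells (log2 fold change 0.67, SE 0.11, adjusted p = 0.000240). That difference was 0.42 with the GC correction (adjusted p = 0.0226). Sall4 in Nanog/Otx2 cells (-0.12), Utf1 in Nanog cells (0.030) and Zscan10 in both (0.024 and 0.065) did not pass, and their groups overlapped.

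Nanog/Otx2 cells were compared with Nanog cells in Dox without LIF, where the former alone carry a guide against Otx2, a factor of the primed state. The lines also differ by a further round of clone picking and in the names of their libraries. The guide, the clones and a batch of preparation or sequencing thus cannot be told apart in this comparison. Pou5f1 and Utf1 were higher in Nanog/Otx2 cells and Sox2, Sall4 and Zscan10 were not called. 2 of 5 members were called against 41.0% of all genes. Pou5f1 stood at 37935 in C1-1, 36346 in C1-2, 41073 in C2-1 and 41009 in C2-2 in Nanog/Otx2 cells and at 20598 in C1-1, 18531 in C1-1b and 20578 in C2-2 in Nanog cells. The groups did not overlap (log2 fold change 0.91, SE 0.15, adjusted p = 6.28e-05, 1.87-fold). Utf1 likewise stood at 8648 in C1-1, 8833 in C1-2, 8579 in C2-1 and 10367 in C2-2 against 2985 in C1-1, 2995 in C1-1b and 4046 in C2-2, without overlap (log2 fold change 1.38, SE 0.33, adjusted p = 0.00233, 2.60-fold). Both genes were already apart without Dox: Pou5f1 was at 41227 in C1-1, 36862 in C1-2, 45805 in C2-1 and 40336 in C2-2 in Nanog/Otx2 cells and at 21176 in C1-1, 19118 in C1-2 and 25894 in C2-1 in Nanog cells, and Utf1 at 7389 in C1-1, 8255 in C1-2, 9542 in C2-1 and 9471 in C2-2 and at 3646 in C1-1, 3110.1 in C1-2 and 5649 in C2-1.

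The lines also differed in GC measure, with a difference of 1.11 between their medians in this comparison. With the GC correction Pou5f1 stayed called (0.59, SE 0.11, adjusted p = 0.000655), while Utf1 was at 0.26 (95% interval -0.17 to 0.70, adjusted p = 0.386). With the replicate block as well, Utf1 was at 0.62 (adjusted p = 0.00548). The lines share no block, so that value sets C2-2 of Nanog/Otx2 cells against C1 of Nanog cells. It is not read as a result here. Sox2 (-0.010, 95% interval -0.40 to 0.38), Sall4 (0.078, -0.20 to 0.36) and Zscan10 (0.088, -0.35 to 0.52) overlapped between the lines. The effect of Dox itself did not differ between the lines for any member at the threshold: the interaction of guide and Dox called 0 of 5, against 0.0308% of all genes, with 0 members at an unadjusted p under 0.05 and 0 called by DESeq2 (of all genes, edgeR called 5, or 10 with the replicate block). Its estimates ran from -0.15 for Sox2 (95% interval -0.71 to 0.40) to 0.34 for Utf1 (-0.59 to 1.28).

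In 44iN cells the transgene is the only source of Nanog. Between Dox and 24 h without it, edgeR without a replicate block called 0 genes of any kind (0%), while 1023 genes were at an unadjusted p under 0.05 and DESeq2 called 141, none of them a member. Of the members, Utf1 alone was at an unadjusted p under 0.05 (0.0499). Pou5f1 was at 7843 in replicate 1 and 19491 in replicate 2 with Dox and at 6786 in replicate 1 and 9305 in replicate 2 without. Sox2 was at 20843 in replicate 1 and 10709 in replicate 2 and at 23712 in replicate 1 and 19025 in replicate 2. In both genes replicate 2 with Dox stood away from the other 3 libraries, higher for Pou5f1 and lower for Sox2, and its GC measure was -0.84 where the others had -2.88 to -2.12. Utf1 was at 455 in replicate 1 and 751 in replicate 2 with Dox and at 274 in replicate 1 and 385 in replicate 2 without, Zscan10 at 919 in replicate 1 and 1975 in replicate 2 and at 969 in replicate 1 and 1322 in replicate 2, and Sall4 at 6889 in replicate 1 and 5196 in replicate 2 and at 9196 in replicate 1 and 7001 in replicate 2. When replicate 1 with Dox was left out, replicate 2 stood alone for the group and was assumed to vary like the other group. The differences were then 1.38 for Pou5f1, 1.29 for Utf1, 0.89 for Zscan10 and -0.89 for Sox2. A call from a group of 1 library is not read as a result here. With a block for the replicate number, which is all that these libraries share, edgeR called Pou5f1 (0.73, adjusted p = 0.0114) and Utf1 (0.95, adjusted p = 0.00117) higher with Dox, where 13.3% of all genes were called.

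After long-term culture without Nanog, none of the 5 genes was called against wild-type Tg2a cells in the fit without a replicate block, where 8.61% of all genes were called. Sox2 was at 8003 in replicate 1 and 10546 in replicate 2 in long-term cells and at 12521 in replicate 1, 13657 in replicate 2 and 11282 in replicate 3 in Tg2a cells. The long-term libraries were the lower, without overlap (-0.51, 95% interval -0.93 to -0.092, adjusted p = 0.119). The difference was called without replicate 3 of Tg2a (-0.59, adjusted p = 0.0428), a library that differed from the other Tg2a libraries in GC measure (-0.52, against -1.82 and -1.50). Sall4 was at 6706 in replicate 1 and 7214 in replicate 2 and at 5254 in replicate 1, 5348 in replicate 2 and 5758 in replicate 3, the long-term libraries being the higher (0.27, adjusted p = 0.236). Pou5f1 was at 10159 in replicate 1 and 11293 in replicate 2 and at 9134 in replicate 1, 8862 in replicate 2 and 19043 in replicate 3, Utf1 at 319 in replicate 1 and 396 in replicate 2 and at 328 in replicate 1, 300.5 in replicate 2 and 921 in replicate 3, and Zscan10 at 1139 in replicate 1 and 1190.5 in replicate 2 and at 836 in replicate 1, 843 in replicate 2 and 1584 in replicate 3. In each of these, replicate 3 of Tg2a was the highest library and the groups overlapped (adjusted p = 0.618, 0.441 and 0.964). With a block for the replicate number, Sox2 (-0.60, adjusted p = 0.00236) was called lower and Sall4 (0.30, adjusted p = 0.0491) and Zscan10 (0.38, adjusted p = 0.0249) higher in long-term cells, where 32.4% of all genes were called. Number 3 occurs in Tg2a cells alone, so this block in effect sets replicate 3 aside. It pairs the remaining libraries of the 2 lines by their number alone.

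Sox2 stood at 8003 in replicate 1 and 10546 in replicate 2 in long-term cells and at 23712 in replicate 1 and 19025 in replicate 2 24 h after Dox removal. The long-term libraries were the lower, without overlap, and the adjusted p was just over the threshold (-1.14, SE 0.31, 95% interval -1.85 to -0.43, adjusted p = 0.0554). A block for the replicate number also called it (-1.12, adjusted p = 0.0438, where 15.8% of all genes were called). DESeq2 called it (-1.16, adjusted p = 0.00635), as did edgeR without the filter on low counts (-1.11, adjusted p = 0.0233) and without either 44iN library with Dox (-1.15 and -1.12, adjusted p = 0.00999 and 0.00979). 0 of 5 members were called by edgeR, against 8.74% of all genes, and Sox2 was the single member at an unadjusted p under 0.05. The median GC measure was higher in long-term cells by 0.94, and summed primitive endoderm markers stood at 6263 to 9467 normalised counts in long-term cells and at 494 to 996 after 24 h, with 0 of 5 markers at 0 in every library of a group. With the GC correction Sox2 was at -1.34 (adjusted p = 0.0319). The part of these cells in the result was not tested. Pou5f1 (0.47), Utf1 (0.18), Zscan10 (0.085) and Sall4 (-0.16) did not pass.

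Oct4 and Sox2 act through partners and shared targets, and a list of 20 of these was followed in the same fits. The list includes Nanog, which a guide targets in both lines, so its rise with Dox was set by the design. It also shares genes with the naive markers above, Klf4, Esrrb and Prdm14 among them, so the counts of these lists are not independent. Upon LIF withdrawal 2 rose and 13 fell in Nanog cells (median log2 fold change -1.29), where 41.5% of all genes were called, and 3 rose and 14 fell in Nanog/Otx2 cells (-1.17), where 49.8% were. At the ends of the list in Nanog cells were the naive factors Klf4 at -5.55 (adjusted p = 1.39e-07) and Tfcp2l1 at -4.85 (adjusted p = 3.99e-07), and at the other end Lin28a at 1.00 (adjusted p = 0.00228), an RNA-binding protein, and Lefty1 at 0.85 (adjusted p = 0.359), a Nodal inhibitor. With Dox without LIF 12 rose and 0 fell in Nanog cells (1.27), led by Prdm14 at 3.28 (adjusted p = 0.000555), a repressor of epiblast genes, and Esrrb at 3.23 (adjusted p = 3.03e-05), an orphan nuclear receptor, with Foxd3 at -0.71 (adjusted p = 0.248) and Lin28a at -0.49 (adjusted p = 0.207) at the low end, and 12 rose and 3 fell in Nanog/Otx2 cells (1.24). The shares of all genes called there were 5.14% and 17.3%. Nanog was among the 12 that rose in each line. The medians over all genes tested lay between -0.049 and 0.0018 in these 4 comparisons. Over 6 other settings, the number that fell upon LIF withdrawal was 12 to 13 in Nanog and 13 to 15 in Nanog/Otx2 cells, and the number that rose with Dox was 12 and 12 to 14.

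With LIF, Dox called 0 of the 20 in Nanog cells, where edgeR found 7 at an unadjusted p under 0.05 and DESeq2 called 2, and 2 rose and 8 fell in Nanog/Otx2 cells (of all genes, 0.563% and 22.9% were called). Nanog, the target of a guide, was among the 2 that rose in Nanog/Otx2 cells. Between the lines in Dox without LIF, 2 of 20 were higher in Nanog/Otx2 cells and 4 lower, against 41.0% of all genes called, and the guide by Dox interaction called 0 of 20 by edgeR and 0 by DESeq2, with 2 at an unadjusted p under 0.05. In long-term 44iN cells 2 were higher and 8 lower than in Tg2a cells, where 8.61% of all genes were called, Nanog itself being the lowest (-6.37, adjusted p = 1.02e-05). Nanog counts among the 8, and its low level was set by the design, as these cells lack the endogenous gene.

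Sox2ot, the non-coding RNA whose gene spans Sox2, was a low-level transcript of 44.5 to 282 normalised counts. In Nanog cells it read 219.6 in C1-1, 282 in C2-1 and 177 in C2-2 with LIF, 57.8 in C1-1, 78.9 in C1-2 and 102 in C2-1 without LIF and Dox and 224 in C1-1, 154 in C1-1b and 267 in C2-2 with Dox alone. The cells without both had the lowest libraries, with no overlap with either group (log2 fold change -1.53, SE 0.34, adjusted p = 0.00403 upon LIF withdrawal, and log2 fold change 1.47, SE 0.33, adjusted p = 0.0262 with Dox). In Nanog/Otx2 cells the same comparisons gave -0.37 (adjusted p = 0.413) and 0.43 (adjusted p = 0.408), with overlapping groups. Since Sox2ot and Sox2 lie on the same strand, reads of Sox2 that were counted for Sox2ot cannot be told apart here.

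The genes most alike each member were found by the Pearson correlation of log2(normalised count + 1) over the 35 libraries, among 11291 genes whose mean normalised count was 100 or more. They were Rfc2 (r = 0.989), Uqcr10 (r = 0.987) and Ndufs8 (r = 0.986) for Pou5f1, Rnf126 (r = 0.988), Vars2 (r = 0.985) and Nle1 (r = 0.984) for Utf1, Smarcd1 (r = 0.974), Nacc1 (r = 0.970) and Dcakd (r = 0.966) for Zscan10, Btbd11 (r = 0.919), Bcap29 (r = 0.890) and Slc25a13 (r = 0.886) for Sox2 and Znhit6 (r = 0.827), Timm23 (r = 0.821) and C1qbp (r = 0.821) for Sall4. The highest values were those of Pou5f1, Utf1 and Zscan10. The points share a line, a condition and a GC measure in sets of libraries, and the 3 genes most alike Utf1 have exonic GC contents of 62.4%, 58.4% and 55.2%, so these correlations are a description of the libraries.

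**Figure D4:**
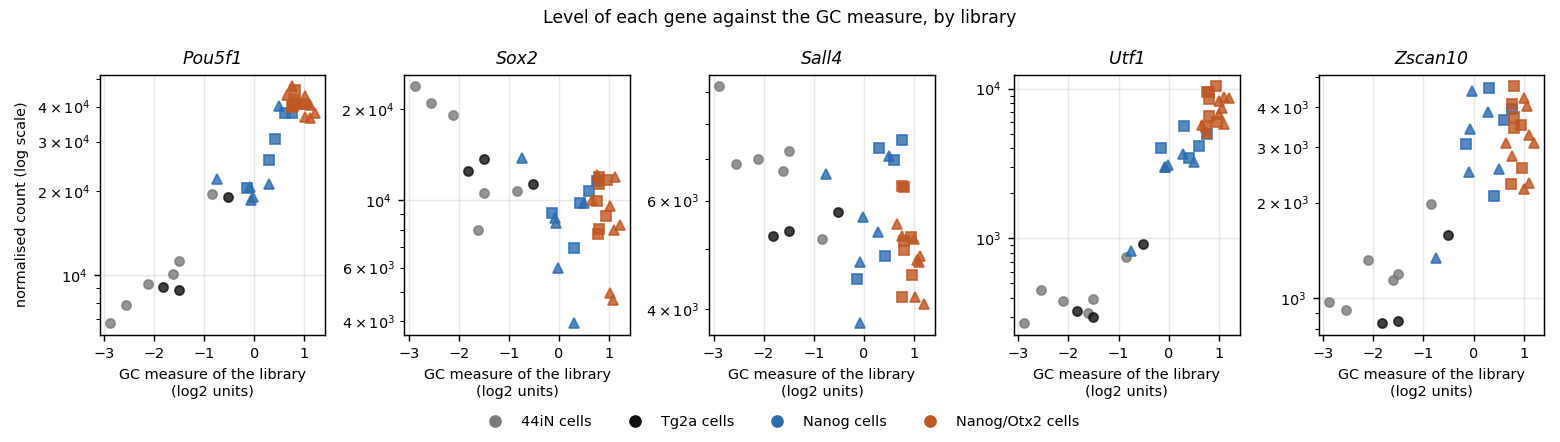
Normalised count of each gene (log scale) against the GC measure of the library, 1 point per library, coloured by cell line and shaped by clone. Pou5f1, Utf1 and Zscan10 are lower in the 44iN and Tg2a libraries, which have a GC measure of -0.52 or less, than in most SunTag libraries. Sall4 stays between 3799.9 and 9196 along the whole axis.

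**Figure D5:**
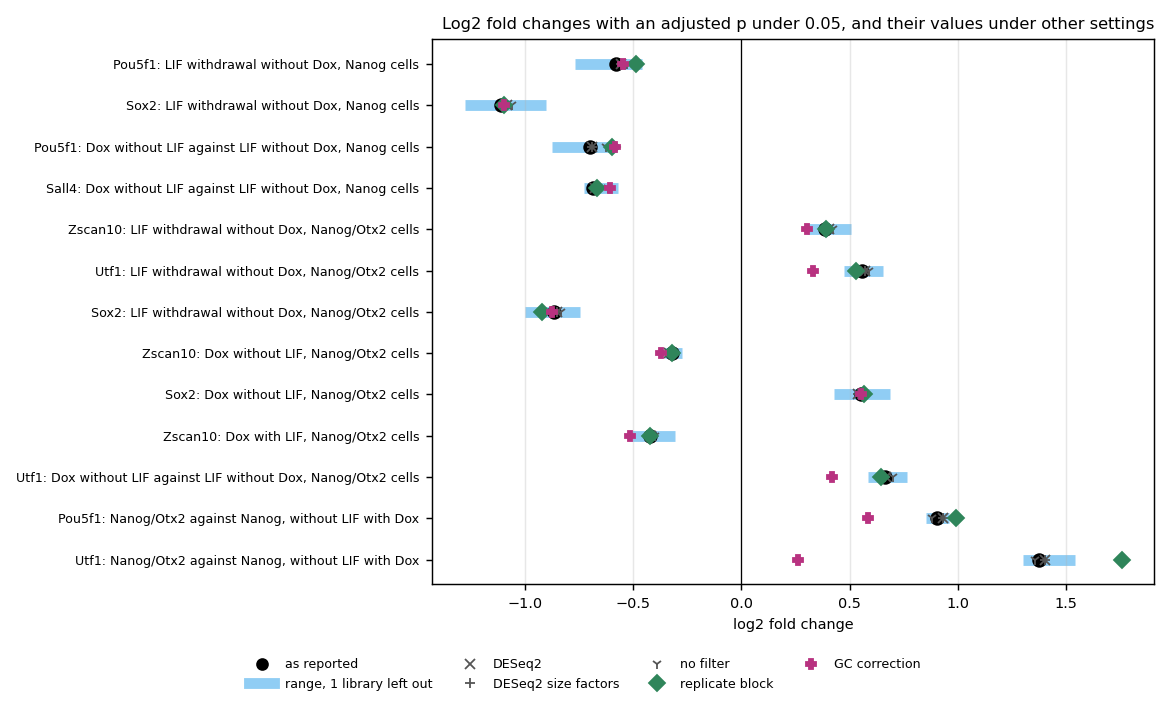
The 13 log2 fold changes with an adjusted p under 0.05 (black points), with the range when 1 library is left out (blue bars) and the values under other settings. Each kept its sign, and Utf1 between the lines moved furthest, from 1.38 to 0.26 with the GC correction. Values with the replicate block in Nanog/Otx2 against Nanog cells set different clones against each other, as the lines share no block.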

How the data were processed

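mRNA was sequenced from mouse ES cells with a stranded kit, and tables of 37620 genes by 35 libraries were used. For the 3 samples of Tg2a cells in 2i no column was used, and they were not analysed here. Per the labels, the authors called reads with CASAVA 1.8, aligned them to mm9 with STAR and estimated counts per gene with RSEM, so the deposited table holds estimated counts, which were rounded here. A second deposited table holds a signal, the estimated counts the authors divided by DESeq2 size factors, called normalised counts in the text. Versions of STAR, RSEM and DESeq2 are not given in the sources used here. RSEM shares reads between overlapping or similar genes by a model, and no correction for GC content is stated.

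A gene entered the fit where 1 or more groups had no library under 10 normalised counts. Fits used edgeR 4.0.16 (quasi-likelihood test, TMM, R 4.3.3), with p-values adjusted by Benjamini-Hochberg over all genes tested and a threshold of 0.05, without a covariate. Nanog and Nanog/Otx2 libraries were fitted apart, except for the guide comparisons, which used all 26. Dox in 44iN cells used 4 libraries, long-term against Tg2a cells 5, and long-term against 24 h 9. Errors are SD over libraries or SE of a fitted log2 fold change, and intervals are at 95%. Alternatives were DESeq2 1.42.0, its size factors in edgeR, no filter, each library left out in turn and a replicate block. The correction for GC content (lowess of each library's log2 deviations on exonic GC content, span 0.3, limma 3.58.1) its combination with the block, and a block by the replicate numbers of the table columns were chosen after seeing the data. The scripts were tested on simulated data. The clones pair the SunTag libraries: residuals of libraries in the same block correlated at r over 0.1 in 21 of 21 pairs of Nanog/Otx2 cells (lowest 0.143) and in 16 of 22 of Nanog cells (mean 0.166). The GC measure used 11278 genes whose mean normalised count was 100 or more. Exons and starts are from GENCODE vM1 on mm9, and sequences from that genome.

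The members and gene lists were chosen with earlier results of these data known, so their calls are not independent support for any pattern. By rule, all 5 members were named in every comparison, for each the 3 genes most alike, for each list the 2 highest and 2 lowest log2 fold changes where they are named, the targeted genes Nanog and Otx2, and Sox2ot. Python 3.11.15, pandas 2.3.3, numpy 2.4.6 and matplotlib 3.10.9 were used for tables and figures.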

Additional observations from a re-analysis of the deposited data

Results flagged for a closer look

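Utf1 in library C2-2 of Nanog/Otx2 cells with Dox and without LIF stood away from the rest of its group, at 10367 normalised counts where the others had 8648, 8833 and 8579. Its gap to the nearest library was 0.858 of the range of the group, above Dixon's 95% critical value for 4 libraries. Among 15 groups tested, 1 value passed, and chance passes about 1 in 20. Without this library Utf1 remained called in the comparison with LIF alone (0.59, adjusted p = 0.000825 by edgeR's quasi-likelihood test) and against Nanog cells (1.31, adjusted p = 0.00658).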

How the results depend on the processing

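Over the 15 comparisons, edgeR called 2 for LIF withdrawal in Nanog cells, 2 for Dox alone against LIF alone in Nanog cells, 3 for LIF withdrawal in Nanog/Otx2 cells, 2 for Dox without LIF in Nanog/Otx2 cells, 1 for Dox with LIF in Nanog/Otx2 cells, 1 for Dox alone against LIF alone in Nanog/Otx2 cells and 2 for Nanog/Otx2 against Nanog cells among the 5 members and 0 in each of the others. Below, counts are listed where they differed from the count of the reported test, in brackets, by over 1.5 times or where either was 0. All 13 called values of members kept their sign under each alternative. They also kept their call with DESeq2, with its size factors and with the GC correction and block together, and in the refits with 1 library left out it was kept 181 times and lost 20 times. For the 2 called in Nanog/Otx2 against Nanog cells, a fit with a block cannot test the difference between the lines, as they share no block. The calls of Pou5f1 and Utf1 that were lost otherwise stand beside their values above. The cause of the changes below was not tested.

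With DESeq2 in place of edgeR, the members called numbered 1 (0) for Dox without LIF in Nanog cells, 1 (0) for the LIF by Dox interaction in Nanog cells and 1 (0) for long-term against 24 h in 44iN cells. The genes called numbered 1509 (803) for Dox without LIF in Nanog cells, 587 (88) for Dox with LIF in Nanog cells, 877 (302) for the LIF by Dox interaction in Nanog cells, 41 (5) for the guide by Dox interaction, 141 (0) for Dox in 44iN cells, 2294 (1286) for long-term 44iN against Tg2a cells and 2555 (1339) for long-term against 24 h in 44iN cells. The sign turned, among values not called, for Sox2 at 0.015 in Nanog/Otx2 against Nanog cells.

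With the size factors of DESeq2 in edgeR, the sign turned, among values not called, for Sox2 at 0.015 in Nanog/Otx2 against Nanog cells. 

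Without the filter on low counts, the members called numbered 1 (2) for LIF withdrawal in Nanog cells and 1 (0) for long-term against 24 h in 44iN cells. The genes called numbered 151 (88) for Dox with LIF in Nanog cells and 434 (0) for Dox in 44iN cells. The sign turned, among values not called, for Utf1 at -0.0043 in Dox with LIF in Nanog cells.

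With the replicate block, the members called numbered 1 (2) for LIF withdrawal in Nanog cells, 1 (0) for the LIF by Dox interaction in Nanog/Otx2 cells, 2 (1) for Dox alone against LIF alone in Nanog/Otx2 cells, 2 (0) for Dox in 44iN cells, 3 (0) for long-term 44iN against Tg2a cells and 1 (0) for long-term against 24 h in 44iN cells. The genes called numbered 1375 (803) for Dox without LIF in Nanog cells, 293 (88) for Dox with LIF in Nanog cells, 709 (302) for the LIF by Dox interaction in Nanog cells, 5215 (2702) for Dox without LIF in Nanog/Otx2 cells, 6401 (3577) for Dox with LIF in Nanog/Otx2 cells, 3407 (1514) for the LIF by Dox interaction in Nanog/Otx2 cells, 10 (5) for the guide by Dox interaction, 1912 (0) for Dox in 44iN cells, 4840 (1286) for long-term 44iN against Tg2a cells and 2422 (1339) for long-term against 24 h in 44iN cells. The sign turned, among values not called, for Sox2 at 0.084 in Nanog/Otx2 against Nanog cells, Pou5f1 at 0.16 in long-term 44iN against Tg2a cells and Utf1 at 0.086 in long-term 44iN against Tg2a cells. The value of Sox2 sets different clones of the lines against each other, as they share no block.

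With the replicate block by the numbers of the table columns in Nanog/Otx2 cells, the members called numbered 1 (0) for the LIF by Dox interaction in Nanog/Otx2 cells and 3 (1) for Dox alone against LIF alone in Nanog/Otx2 cells. The genes called numbered 5398 (2702) for Dox without LIF in Nanog/Otx2 cells, 6519 (3577) for Dox with LIF in Nanog/Otx2 cells, 3331 (1514) for the LIF by Dox interaction in Nanog/Otx2 cells and 10 (5) for the guide by Dox interaction. The sign turned, among values not called, for Sox2 at 0.052 in Nanog/Otx2 against Nanog cells.

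With the GC correction, the members called numbered 2 (1) for Dox alone against LIF alone in Nanog/Otx2 cells, 1 (2) for Nanog/Otx2 against Nanog cells and 1 (0) for long-term against 24 h in 44iN cells. The genes called numbered 252 (88) for Dox with LIF in Nanog cells, 460 (302) for the LIF by Dox interaction in Nanog cells, 4072 (6642) for Nanog/Otx2 against Nanog cells, 31 (0) for Dox in 44iN cells, 3279 (1286) for long-term 44iN against Tg2a cells and 3054 (1339) for long-term against 24 h in 44iN cells. The sign turned, among values not called, for Utf1 at 0.090 in Dox without LIF in Nanog cells, Zscan10 at -0.071 in Dox alone against LIF alone in Nanog/Otx2 cells, Sall4 at -0.16 in Nanog/Otx2 against Nanog cells, Zscan10 at -0.39 in Nanog/Otx2 against Nanog cells, Pou5f1 at -0.028 in the guide by Dox interaction, Zscan10 at -0.068 in Dox in 44iN cells, Utf1 at -0.22 in long-term against 24 h in 44iN cells and Zscan10 at -0.25 in long-term against 24 h in 44iN cells.

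With the GC correction and the replicate block together, the members called numbered 4 (2) for LIF withdrawal in Nanog cells, 1 (0) for Dox without LIF in Nanog cells, 2 (1) for Dox with LIF in Nanog/Otx2 cells, 1 (0) for the LIF by Dox interaction in Nanog/Otx2 cells, 3 (1) for Dox alone against LIF alone in Nanog/Otx2 cells, 1 (0) for Dox in 44iN cells, 1 (0) for long-term 44iN against Tg2a cells and 1 (0) for long-term against 24 h in 44iN cells. The genes called numbered 2043 (803) for Dox without LIF in Nanog cells, 784 (88) for Dox with LIF in Nanog cells, 1159 (302) for the LIF by Dox interaction in Nanog cells, 5524 (2702) for Dox without LIF in Nanog/Otx2 cells, 6261 (3577) for Dox with LIF in Nanog/Otx2 cells, 3511 (1514) for the LIF by Dox interaction in Nanog/Otx2 cells, 11 (5) for the guide by Dox interaction, 1232 (0) for Dox in 44iN cells, 4102 (1286) for long-term 44iN against Tg2a cells and 3097 (1339) for long-term against 24 h in 44iN cells. The sign turned, among values not called, for Utf1 at 0.11 in Dox without LIF in Nanog cells, Sall4 at -0.0070 in LIF withdrawal in Nanog/Otx2 cells, Utf1 at -0.043 in Dox with LIF in Nanog/Otx2 cells, Zscan10 at -0.098 in Dox alone against LIF alone in Nanog/Otx2 cells, Sall4 at -0.053 in Nanog/Otx2 against Nanog cells, Zscan10 at -0.26 in Nanog/Otx2 against Nanog cells, Pou5f1 at -0.032 in the guide by Dox interaction, Zscan10 at -0.071 in Dox in 44iN cells, Pou5f1 at 0.090 in long-term 44iN against Tg2a cells, Utf1 at -0.20 in long-term against 24 h in 44iN cells and Zscan10 at -0.24 in long-term against 24 h in 44iN cells.

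With 1 library left out in turn, the members called ranged from 1 to 2 for LIF withdrawal in Nanog cells, 0 to 2 for Dox without LIF in Nanog cells, 0 to 2 for Dox alone against LIF alone in Nanog cells, 1 to 2 for Dox without LIF in Nanog/Otx2 cells, 0 to 4 for Dox in 44iN cells, 0 to 1 for long-term 44iN against Tg2a cells and 0 to 1 for long-term against 24 h in 44iN cells. The genes called ranged from 277 (without Nanog -LIF -Dox replicate C1-1) to 1617 (without Nanog +LIF -Dox replicate C1-1) for Dox without LIF in Nanog cells, 3 (without Nanog +LIF +Dox replicate C1-1) to 142 (without Nanog +LIF -Dox replicate C1-1) for Dox with LIF in Nanog cells, 81 (without Nanog -LIF +Dox replicate C1-1) to 481 (without Nanog +LIF -Dox replicate C1-1) for the LIF by Dox interaction in Nanog cells, 2648 (without Nanog -LIF +Dox replicate C1-1b) to 6744 (without Nanog +LIF -Dox replicate C1-1) for Dox alone against LIF alone in Nanog cells, 1756 (without Nanog/Otx2 -LIF +Dox replicate C1-2) to 3007 (without Nanog/Otx2 +LIF -Dox replicate C2-1) for Dox without LIF in Nanog/Otx2 cells, 1962 (without Nanog/Otx2 +LIF -Dox replicate C1-2) to 4036 (without Nanog/Otx2 +LIF -Dox replicate C2-1) for Dox with LIF in Nanog/Otx2 cells, 870 (without Nanog/Otx2 +LIF -Dox replicate C1-2) to 1847 (without Nanog/Otx2 +LIF -Dox replicate C2-1) for the LIF by Dox interaction in Nanog/Otx2 cells, 0 (without Nanog -LIF +Dox replicate C1-1) to 8 (without Nanog +LIF -Dox replicate C1-1) for the guide by Dox interaction, 61 (without 44iN -Dox 24 h replicate 1) to 3413 (without 44iN +Dox replicate 1) for Dox in 44iN cells, 19 (without 44iN -Dox LT replicate 1) to 2618 (without Tg2a FCS replicate 3) for long-term 44iN against Tg2a cells and 33 (without 44iN -Dox 24 h replicate 2) to 2640 (without 44iN +Dox replicate 2) for long-term against 24 h in 44iN cells. Values not called whose sign turned ranged over Utf1 -0.13 to 0.71 in LIF withdrawal in Nanog cells, Pou5f1 -0.20 to 0.024 in Dox without LIF in Nanog cells, Utf1 -0.44 to 0.025 in Dox without LIF in Nanog cells, Pou5f1 -0.087 to 0.25 in Dox with LIF in Nanog cells, Utf1 -0.43 to 0.41 in Dox with LIF in Nanog cells, Sall4 -0.41 to 0.073 in the LIF by Dox interaction in Nanog cells, Utf1 -0.69 to 0.17 in the LIF by Dox interaction in Nanog cells, Zscan10 -0.39 to 0.20 in the LIF by Dox interaction in Nanog cells, Utf1 -0.40 to 0.43 in Dox alone against LIF alone in Nanog cells, Zscan10 -0.29 to 0.27 in Dox alone against LIF alone in Nanog cells, Pou5f1 -0.080 to 0.022 in Dox without LIF in Nanog/Otx2 cells, Sox2 -0.13 to 0.0022 in Dox with LIF in Nanog/Otx2 cells, Utf1 -0.0027 to 0.18 in Dox with LIF in Nanog/Otx2 cells, Sall4 -0.045 to 0.099 in the LIF by Dox interaction in Nanog/Otx2 cells, Utf1 -0.068 to 0.11 in the LIF by Dox interaction in Nanog/Otx2 cells, Zscan10 -0.015 to 0.19 in the LIF by Dox interaction in Nanog/Otx2 cells, Zscan10 -0.018 to 0.18 in Dox alone against LIF alone in Nanog/Otx2 cells, Sox2 -0.14 to 0.048 in Nanog/Otx2 against Nanog cells, Sall4 -0.0092 to 0.15 in Nanog/Otx2 against Nanog cells, Zscan10 -0.027 to 0.19 in Nanog/Otx2 against Nanog cells, Pou5f1 -0.094 to 0.19 in the guide by Dox interaction, Sox2 -0.34 to 0.046 in the guide by Dox interaction, Sox2 -0.89 to 0.021 in Dox in 44iN cells, Zscan10 -0.26 to 0.89 in Dox in 44iN cells, Pou5f1 -0.48 to 0.16 in long-term 44iN against Tg2a cells, Utf1 -0.87 to 0.096 in long-term 44iN against Tg2a cells, Zscan10 -0.16 to 0.38 in long-term 44iN against Tg2a cells, Sall4 -0.34 to 0.071 in long-term against 24 h in 44iN cells, Utf1 -0.026 to 0.45 in long-term against 24 h in 44iN cells and Zscan10 -0.10 to 0.33 in long-term against 24 h in 44iN cells. Calls were gained for Sox2 in Dox without LIF in Nanog cells without Nanog +LIF -Dox replicate C1-1 (0.68, adjusted p = 0.0273 by edgeR's quasi-likelihood test), Sox2 in Dox without LIF in Nanog cells without Nanog -LIF -Dox replicate C2-1 (0.86, adjusted p = 0.0427 by edgeR's quasi-likelihood test), Zscan10 in Dox without LIF in Nanog cells without Nanog +LIF -Dox replicate C1-1 (-0.49, adjusted p = 0.0372 by edgeR's quasi-likelihood test) and Pou5f1 in LIF withdrawal in Nanog/Otx2 cells without Nanog/Otx2 -LIF -Dox replicate C2-1 (-0.20, adjusted p = 0.0496 by edgeR's quasi-likelihood test). Where a 44iN group was left with a single library, that library was assumed to vary like the other groups.

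The replicate block held the clone in Nanog cells, the clone with its number in Nanog/Otx2 cells and the replicate number in 44iN and Tg2a cells. No block was shared between Nanog and Nanog/Otx2 cells. In each setting with a block, values of Nanog/Otx2 against Nanog cells thus set C2-2 of the former against C1 of the latter. They mix the clones with the lines and are not read as results. In Nanog/Otx2 cells the number of the title was used, and with the numbers of the columns all 21 pairs were over 0.1 as well (lowest 0.126). In 44iN and Tg2a cells a number is all that the libraries share. Same-numbered pairs had r = 0.559 for Dox in 44iN cells, a mean r of 0.134 (2 pairs) for long-term against Tg2a cells and of 0.138 (12 pairs) over all 9 libraries. The 0.559 is a single value, since in a group of 2 libraries the deviations from the mean mirror each other. For the same reason values repeat among the 12 pairs. Either block changed no other call of a member in SunTag cells than those given with it above. No setting of normalisation moved the median of all genes by more than 0.1 on the log2 scale. Depth limits the members little, since their lowest estimated count in a library was 114. The values rest on 2 to 4 libraries per group, and a batch of preparation or sequencing and the guide cannot be told apart between Nanog and Nanog/Otx2 cells.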

Other observations

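Relatives of the members were called upon LIF withdrawal at shares near those of all genes. Among 18 genes of the Sall, Sox, Pou and Zscan families, 6 of 16 rose and 1 fell upon LIF withdrawal in Nanog cells (median log2 fold change 0.30, -0.049 over all genes tested, of which 41.5% were called) and 5 of 15 rose and 4 fell in Nanog/Otx2 cells (0.091, -0.012, 49.8%). Over 6 other settings 5 to 6 rose and 1 to 3 fell in Nanog cells, and 5 rose and 4 to 5 fell in Nanog/Otx2 cells. Pou3f1 (also called Oct6), a POU factor of the primed epiblast, rose in Nanog cells (4.89, adjusted p = 6.79e-07 by edgeR's quasi-likelihood test), as did Sall2, a relative of Sall4 (4.58, adjusted p = 2.18e-06). Sox15, an HMG-box factor of ES cells, fell (-2.27, adjusted p = 0.00144). Zscan4d, a gene of rare 2-cell-like cells, was at -1.44, adjusted p = 0.206. Since its copies are nearly identical in sequence, its counts are uncertain. Sall4 itself was at -0.23, adjusted p = 0.313 and Pou5f1 at -0.58, adjusted p = 0.0395. Sall2 rose as well in Nanog/Otx2 cells (4.72, adjusted p = 7.54e-09) and Sox15 fell (-2.83, adjusted p = 6.74e-08).

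With Dox without LIF, 1 of 16 rose and 3 fell in Nanog cells, where 5.14% of all genes were called, and 1 of 15 rose and 3 fell in Nanog/Otx2 cells, where 17.3% were. Over 6 other settings 1 rose and 2 to 5 fell in Nanog cells, and 1 to 2 rose and 2 to 4 fell in Nanog/Otx2 cells. Sox15 rose (2.23, adjusted p = 0.0103 and 1.98, adjusted p = 1.4e-05), whereas Sox3, an HMG-box factor of the primed epiblast and neural cells, fell (-2.58, adjusted p = 0.000673 and -1.30, adjusted p = 0.000994). Pou3f3 was at -1.62, adjusted p = 0.152 in Nanog cells and Zscan4d at 0.83, adjusted p = 0.698 and 0.49, adjusted p = 0.322. The lists were chosen with earlier results of these data known.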
